A study of Rattus norvegicus with 15 samples.

Results

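The expression of 9 genes of the p53 pathway, among them genes that restrain p53 itself or stop cell division, was followed in cultured rat cells after x-ray exposure. The genes were Mdm2, Mdm4, Ccng1, Ppm1d, Cdkn1a, Btg2, Zmat3, Sesn1 and Sesn2, 9 of 37367 genes in the table. They were chosen by name, and all 9 passed the filter on low values. For each gene, every transcript that carried its name was taken, together with the transcripts that had been assembled from the reads without a name at a locus with no other gene name. This gave 30 transcripts of 85322, of which 13 were named and 17 were not. The libraries came from primary cultures of cerebral microvessels of Sprague-Dawley rats (spelled Spraque-Dawley in the labels), littermates aged 2-3 weeks of both sexes, and the cultures are labelled as brain microvascular endothelial cells (BMECs). Each of 5 groups held 3 libraries. One group was unexposed and is labelled as cultured for 12 h, and the others were collected 12 h or 24 h after a delivered dose of 5 Gy or 20 Gy. No unexposed culture of 24 h was analysed here, so at 24 h the effect of x-rays and that of a longer culture cannot be told apart.

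The endothelial label was checked against marker genes. The 9 endothelial markers in the table summed to only 2.15 to 6.15 FPKM (fragments per kilobase of transcript, scaled to the mapped fragments of the library) per library, most of it from Flt1. Tie1 and Emcn were listed at 0 in every library, and Cdh5 reached at most 0.275 FPKM and Vwf at most 0.110. A listed 0 need not mean that a gene is silent, since Hspa8, a chaperone of every cell, is listed at 0 in all 15 libraries. The 6 fibroblast markers, collagens among them, summed to 1798 to 1987 FPKM in the control libraries, 1273 to 1547 at 12 h and 272 to 326 at 24 h. The low levels of the markers that are above 0 go against the label, and the cells are called cultures here. In bulk samples, fewer cells of a type and less RNA per cell cannot be told apart. The libraries held 5.44 to 7.49 gigabases of aligned sequence, and of these the least covered gene, Ppm1d, had 95.2 to 531 kilobases per library.

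p53 is a transcription factor that is held at a low level in unstressed cells and is stabilized when DNA is broken. It then induces genes that stop the cell cycle, repair DNA or start cell death, and at the same time genes that switch it off again. Mdm2 is the ubiquitin ligase that marks p53 for degradation, and Mdm4 is its relative that binds p53 and blocks its activity. Ppm1d encodes the phosphatase Wip1, which removes the phosphates that the damage kinases place on p53 and its partners, and Ccng1 encodes cyclin G1, which recruits a phosphatase to Mdm2. Cdkn1a encodes p21, the inhibitor of cyclin-dependent kinases that carries out the G1 arrest, and Btg2 encodes an antiproliferative protein that also acts in mRNA deadenylation. Zmat3 encodes an RNA-binding zinc finger protein, and Sesn1 and Sesn2 encode sestrins, which restrain mTORC1 and limit oxidative damage. Btg2 is also an immediate early gene and Sesn2 is also induced by the integrated stress response, so both have other inputs than p53.

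RefSeq promoters of 300 bases (250 before the start and 50 after it, genome build GRCr8) were found for 8 of the 9 genes, all but Zmat3. The p53 half-site, a short motif searched on both strands, was present in 3 of these 8 promoters and in 7.98% of all 33469 promoters. Those of Cdkn1a, Ccng1 and Sesn1 held it. A full p53 site is a pair of half-sites, 20 bases when they adjoin. The best such window in the promoters of Cdkn1a (first base at position -201) and Ccng1 (position -242) had 1 mismatch to the consensus, and only 24 of all 33469 promoters (0.0717%) had a window as good. The best window had 3 mismatches in Sesn1, as few as in 6.18% of promoters, 4 in Btg2 and 5 in Mdm2, Mdm4, Ppm1d and Sesn2. The following are shown because Cdkn1a and Ccng1 had the largest rises at 12 h and Btg2 one of the largest at 24 h. Sesn1 is shown because it carries a half-site and its summed FPKM was not called against control. Its promoter was not matched to any of its transcript starts, which lie up to 69470 bases apart. Capitals mark the 20-base window in Cdkn1a and Ccng1, the half-site in Sesn1 and the cyclic AMP response element TGACGTCA in Btg2. Cdkn1a lies on the plus strand, chr20:7150682-7150981. Ccng1 lies on the minus strand, chr10:25684827-25685126. Sesn1 lies on the plus strand, chr20:46948469-46948768. Btg2 lies on the minus strand, chr13:48087641-48087940.
Cdkn1a: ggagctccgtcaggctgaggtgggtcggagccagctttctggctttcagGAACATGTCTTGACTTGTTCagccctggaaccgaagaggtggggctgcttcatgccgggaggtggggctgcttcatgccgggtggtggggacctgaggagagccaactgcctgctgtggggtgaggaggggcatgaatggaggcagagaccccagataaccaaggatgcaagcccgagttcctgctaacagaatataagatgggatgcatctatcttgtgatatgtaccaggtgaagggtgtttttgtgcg
Ccng1: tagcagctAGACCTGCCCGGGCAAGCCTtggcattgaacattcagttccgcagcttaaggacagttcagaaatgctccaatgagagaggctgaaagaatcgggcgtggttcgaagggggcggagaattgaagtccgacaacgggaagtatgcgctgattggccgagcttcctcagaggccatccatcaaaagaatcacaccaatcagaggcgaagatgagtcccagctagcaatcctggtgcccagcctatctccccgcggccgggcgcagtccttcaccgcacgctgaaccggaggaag
Sesn1: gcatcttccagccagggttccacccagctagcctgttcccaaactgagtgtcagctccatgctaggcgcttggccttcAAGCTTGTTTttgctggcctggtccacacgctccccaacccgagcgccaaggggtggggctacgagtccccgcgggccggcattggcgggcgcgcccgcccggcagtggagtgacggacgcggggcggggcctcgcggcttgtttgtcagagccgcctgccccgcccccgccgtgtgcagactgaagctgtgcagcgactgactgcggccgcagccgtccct
Btg2: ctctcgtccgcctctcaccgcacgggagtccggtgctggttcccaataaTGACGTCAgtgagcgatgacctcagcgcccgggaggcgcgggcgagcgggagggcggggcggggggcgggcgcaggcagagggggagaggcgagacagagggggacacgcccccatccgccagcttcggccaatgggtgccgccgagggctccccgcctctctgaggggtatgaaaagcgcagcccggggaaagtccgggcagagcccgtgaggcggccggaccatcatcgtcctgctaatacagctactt
The cyclic AMP response element was found in the Btg2 promoter alone among the 8, and in 1.83% of all promoters. The core of the heat shock element, GAANNTTC, was found in Ccng1 alone (8.59% of all promoters), outside its p53 window. The core of the amino acid response element, TGATGNAA, was found in 0 of the 8 and in 3.98% of all promoters. A match is a description of the letters and not evidence of binding, and a site outside these 300 bases would not be seen. Positions count from the RefSeq start, and it was not checked which transcript start in these data this is. The transcripts of Cdkn1a, for example, have several starts.

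Most of the genes rose after exposure, in 2 patterns. Mdm2, Ccng1, Cdkn1a, Zmat3 and Sesn2 were already higher at 12 h after both doses, whereas Ppm1d was not called at 12 h and Btg2 was called there after 20 Gy alone. By summed FPKM after 5 Gy, Mdm2, Sesn2, Ppm1d and Btg2 all differed more between 12 h and 24 h than between control and 12 h. For Mdm2 the later difference (log2 1.71) fell to 0.40 with named transcripts alone, and was 1.68 with FPKM weighted by transcript length. Among Mdm2, Sesn2, Ppm1d and Btg2, the later difference after 20 Gy was the larger for Ppm1d and Btg2 only. At that dose Mdm2 had an earlier log2 difference of 2.00 and a later one of 0.78. Those of Sesn2 were close, at 1.22 and 1.14. Neither Mdm4 nor Sesn1 was called against control by summed FPKM. The differences were tested in log2(FPKM + 1) with limma over 17895 genes, and a gene was called where its p, adjusted over all genes by Benjamini and Hochberg, was under 0.05 and it changed 1.5-fold or more. Folds are on this scale and understate the change of a low gene. At 12 h after 5 Gy, 5 of the 9 genes were called higher than control, beside 4.98% of all genes tested, and at 12 h after 20 Gy 6 were, beside 4.9%. At 24 h, 7 of the 9 were called higher after 5 Gy, beside 20.5% of all genes, and 7 after 20 Gy, beside 17%. None of the 9 was called lower than control in any of these comparisons, in which 4.96%, 3.64%, 20.8% and 23.3% of all genes were. Without replicate 2 of 20 Gy at 24 h, 1 gene, Sesn1, was called lower in that group. The 4 comparisons share the control libraries. The labels do not say whether the libraries of a group came from separate animals, and the study calls them biological replicates.

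**Figure D1:**
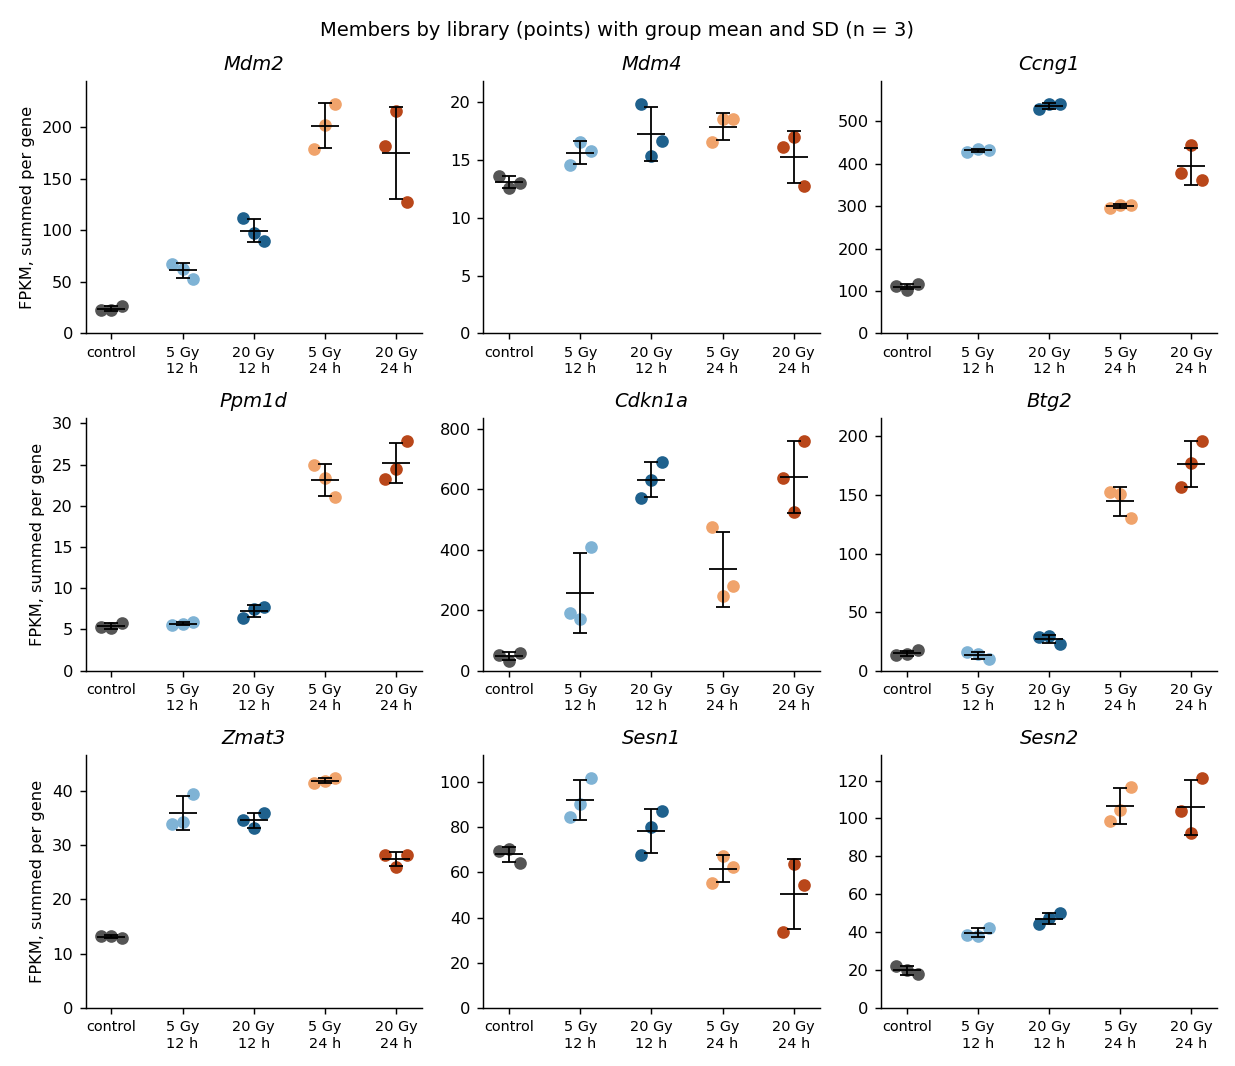
FPKM of each of the 9 genes, summed over its transcripts, in each library (points, 3 per group) with the group mean and SD (n = 3); the vertical axes start at 0 and differ between genes. Ppm1d and Btg2 stayed below 8 and 30 FPKM at 12 h and stood above 20 and 130 FPKM at 24 h, whereas Ccng1 was higher at 12 h than at 24 h.

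In the control cultures Ccng1 was the most abundant of the genes (110 ± 6.77 FPKM, SD, n = 3), followed by Sesn1 (68.0 ± 3.24), Cdkn1a (46.8 ± 13.4), Mdm2 (24.2 ± 2.19), Sesn2 (19.8 ± 2.28), Btg2 (14.7 ± 2.18), Zmat3 (13.1 ± 0.266), Mdm4 (13.1 ± 0.522) and Ppm1d (5.41 ± 0.304). The libraries of Btg2, Zmat3 and Mdm4 overlapped in level, and other neighbours in this order did not. At 24 h after 20 Gy the order was Cdkn1a (640.0 ± 117 FPKM), Ccng1 (394 ± 43.5), Btg2 (177 ± 19.6), Mdm2 (175 ± 44.6), Sesn2 (106 ± 14.6), Sesn1 (50.5 ± 15.4), Zmat3 (27.5 ± 1.21), Ppm1d (25.1 ± 2.42) and Mdm4 (15.3 ± 2.25). Here Btg2 overlapped with Mdm2 and Zmat3 with Ppm1d. Cdkn1a had thus moved ahead of Ccng1 and Sesn1, and Btg2, Mdm2 and Sesn2 ahead of Sesn1.

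Mdm2 (chromosome 7, 60719066 to 60743415, minus strand, Rnor_6.0 as in the files) stood at 22.7, 23.2 and 26.7 FPKM in the control libraries. At 12 h it was 67.7, 62.7 and 52.8 FPKM after 5 Gy and 112, 97.6 and 89.8 after 20 Gy. At 24 h it was 179, 202 and 222 FPKM after 5 Gy and 182, 216 and 127 after 20 Gy. Every exposed library lay above every control library, and every 24 h library above every 12 h library. The fold change from control was 2.46 at 12 h after 5 Gy (log2 1.30 ± 0.17, SE, adjusted p = 0.000203), 4.00 in the 20 Gy 12 h group (log2 2.00, adjusted p = 8.03e-06), 8.02 at 24 h after 5 Gy (log2 3.00, adjusted p = 2.13e-08) and 6.85 in the 20 Gy 24 h group (log2 2.78, adjusted p = 4.09e-08).

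The transcripts that made up the Mdm2 sum differed between 12 h and 24 h. A named transcript of 11 exons (2191 bases) and an unnamed one of 10 exons (2106 bases) share both ends, chromosome 7, 60719631 to 60742660, and the second is 85 bases shorter. The 10-exon form took 7.18% to 9.95% of the FPKM of this pair in the control libraries, 7.89% to 12.0% at 12 h after 5 Gy and 5.14% to 12.6% at 12 h after 20 Gy. At 24 h it took 73.4% to 79.0% after 5 Gy and 69.3% to 75.4% after 20 Gy, so the 24 h groups did not overlap with any other group. In each comparison of a 24 h group with the control or with 12 h at the same dose, the two-sided exact permutation p was 0.1, the smallest that 3 against 3 libraries allow. Without the 10-exon transcript, Mdm2 summed to 22.7 ± 1.99 FPKM in the control, 56.2 ± 7.82 and 93.5 ± 12.8 at 12 h after 5 Gy and 20 Gy, and 78.3 ± 12.2 and 83.5 ± 8.92 at 24 h. On this count the 24 h groups still lay above the control, but after 20 Gy the 24 h libraries overlapped with those of 12 h (two-sided exact permutation p = 0.4). The named transcript of 2855 bases was 4.10 to 4.93 FPKM in the control and 26.8 to 51.7 at 24 h. The share rests on how the authors' assembly divided reads between both forms, and no read across the differing exon was seen here.

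**Figure D2:**
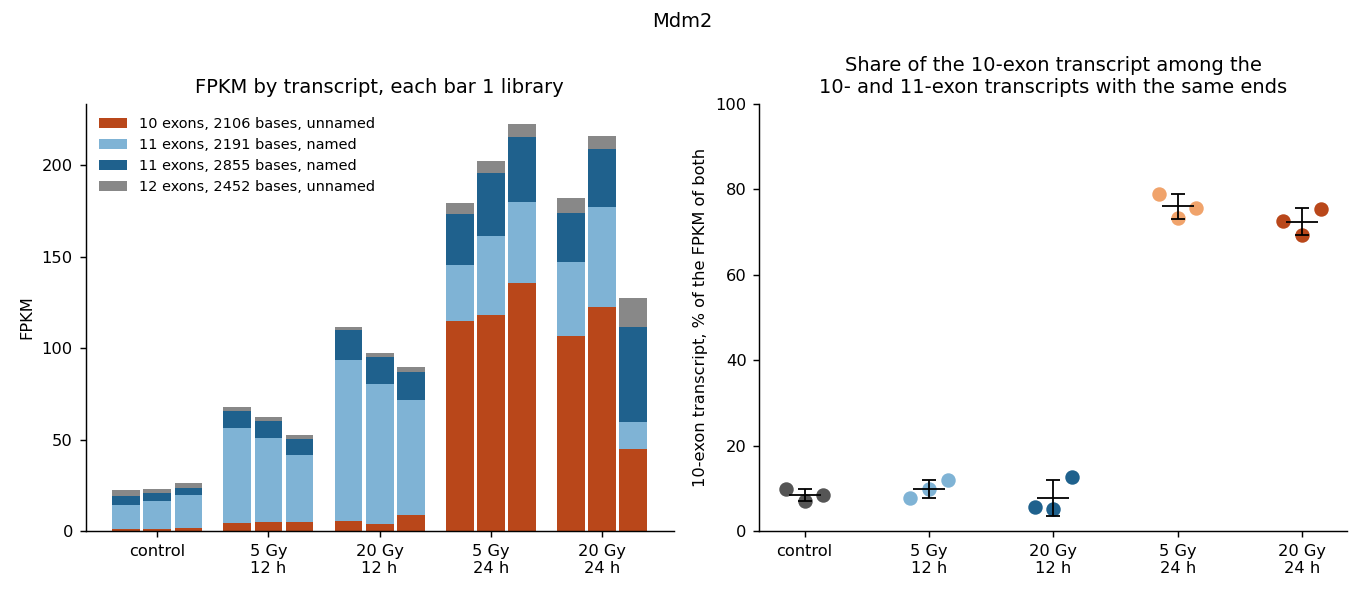
Left, FPKM of the Mdm2 transcripts in each library (bars, stacked by transcript). Right, the percentage that the 10-exon transcript took of the FPKM of the 10-exon and 11-exon transcripts with the same ends, per library (points) with group mean and SD (n = 3); it stayed at or below 12.6% in the control and at 12 h and was between 69.3% and 79.0% at 24 h.

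Mdm4 (chromosome 13, 49719186 to 49828720, minus strand) was 13.6, 12.6 and 12.99 FPKM in the control, 14.6, 16.5 and 15.8 at 12 h after 5 Gy, and 19.8, 15.3 and 16.6 in the 20 Gy 12 h group. At 24 h it was 16.5, 18.5 and 18.5 FPKM after 5 Gy and 16.1, 16.9 and 12.7 after 20 Gy. It was not called in any comparison by summed FPKM, and its fold change from control was between 1.15 and 1.34. Its reads moved between transcripts of very unequal length. In the control libraries a form of 7944 bases held 11.2 to 12.1 FPKM and one of 13351 bases at most 0.368. At 12 h after 5 Gy the longer form held 11.7 to 12.9 and the shorter at most 0.477. At 24 h after 5 Gy they held 10.3 to 11.6 and at most 1.29. After 20 Gy the libraries differed among themselves. The longer form held 1.37 to 12.1 at 12 h and 2.24 to 11.6 at 24 h, and the shorter 0.363 to 16.5 and 1.66 to 6.22. Since 1 FPKM of a longer transcript stands for more sequence, FPKM was also weighted by transcript length, an alternative chosen after seeing the data. Weighted in this way, Mdm4 was called higher at 12 h after 5 Gy (log2 0.75, adjusted p = 0.00224) and after 20 Gy (log2 0.73, adjusted p = 0.00308) and in the 5 Gy 24 h group (log2 0.70, adjusted p = 0.000729), but not at 24 h after 20 Gy (log2 0.49, adjusted p = 0.00798, fold change below 1.5). The named transcript of 1897 bases was 0.981 to 1.28 FPKM in the control, and 4.91 to 6.26 and 2.67 to 3.87 at 24 h after 5 Gy and 20 Gy.

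Ccng1 (chromosome 10, 25903911 to 25910325, minus strand) rose in every exposed group. It was 112, 103 and 116 FPKM in the control, 429, 436 and 433 at 12 h after 5 Gy and 528, 541 and 541 at 12 h after 20 Gy. At 24 h it was lower again, 295, 303 and 302 FPKM after 5 Gy and 378, 444 and 362 after 20 Gy, still above every control library. The log2 fold change from control was 1.96 ± 0.077 (SE) at 12 h after 5 Gy (adjusted p = 5.91e-08), 2.27 in the 20 Gy 12 h group (adjusted p = 4.78e-09), 1.44 at 24 h after 5 Gy (adjusted p = 1.62e-08) and 1.82 in the 20 Gy 24 h group (adjusted p = 2.04e-09). A single named transcript of 3198 bases held nearly all of it. Every library at 20 Gy lay above every library at 5 Gy of the same time, with log2 differences of 0.31 at 12 h (adjusted p = 0.186) and 0.39 at 24 h (adjusted p = 0.014), both below the 1.5-fold limit.

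Ppm1d (chromosome 10, 72909550 to 72945884, plus strand), a single named transcript of 6 exons, stayed near its control level at 12 h. It was 5.25, 5.22 and 5.76 FPKM in the control, 5.56, 5.65 and 5.93 at 12 h after 5 Gy, and 6.41, 7.49 and 7.73 in the 20 Gy 12 h group. It then rose to 24.9, 23.3 and 21.0 FPKM at 24 h after 5 Gy and to 23.2, 24.4 and 27.8 after 20 Gy. The libraries of the 24 h groups lay above all others, and those of both doses overlapped. The log2 fold change from control was 0.07 (adjusted p = 0.681) and 0.35 (adjusted p = 0.0219, below the fold limit) at 12 h after 5 Gy and 20 Gy, and 1.91 (adjusted p = 7.89e-09) and 2.02 (adjusted p = 4.41e-09) at 24 h.

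Cdkn1a (chromosome 20, 6348300 to 6358864, plus strand) rose the most at 12 h among the 9 genes. Its summed FPKM were 52.1, 31.6 and 56.8 in the control, 189, 171 and 410 at 12 h after 5 Gy and 572, 632 and 689 at 12 h after 20 Gy. They were 475, 247 and 281 at 24 h after 5 Gy and 638, 524 and 759 after 20 Gy. The fold changes from control were 5.13 (log2 2.36 ± 0.33, SE, adjusted p = 0.000367), 13.6 (log2 3.76, adjusted p = 1.22e-05), 6.93 (log2 2.79, adjusted p = 1.13e-05) and 13.6 (log2 3.77, adjusted p = 9.15e-07) in the same order.

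The wide spread of Cdkn1a within groups followed which transcript the assembly gave the reads to. In 10 of the 15 libraries nearly all of its FPKM lay on a named transcript of 825 bases and 3 exons. In 1 control library and in 2 libraries each at 12 h and 24 h after 5 Gy, most of it lay instead on 1 of 4 unnamed transcripts of 4 exons and 1867 to 1890 bases, each listed at 0 in at least 13 of the libraries. The same reads give a lower FPKM on a longer transcript, so FPKM was multiplied by transcript length in kilobases, which follows the aligned bases. On this scale Cdkn1a was 45.1, 50.9 and 48.3 in the control, 333, 328 and 350 at 12 h after 5 Gy, 490.2, 544 and 582 in the 20 Gy 12 h group, 414, 438 and 472 at 24 h after 5 Gy and 543, 446 and 648 at 24 h after 20 Gy. The coefficient of variation at 12 h after 5 Gy fell from 51.8% to 3.47%. With length-weighted FPKM the log2 fold changes from control were 2.78, 3.46, 3.17 and 3.46, with adjusted p between 2.38e-10 and 4.42e-08. If only the transcripts that carry the name Cdkn1a had been used, the change at 12 h after 5 Gy would have been -0.46 on the log2 scale, the opposite sign. An unnamed transcript of 2577 bases that begins upstream of the others, at 6348300, was 0.319 to 0.567 FPKM in the control and 4.12 to 14.9 in the exposed libraries.

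**Figure D3:**
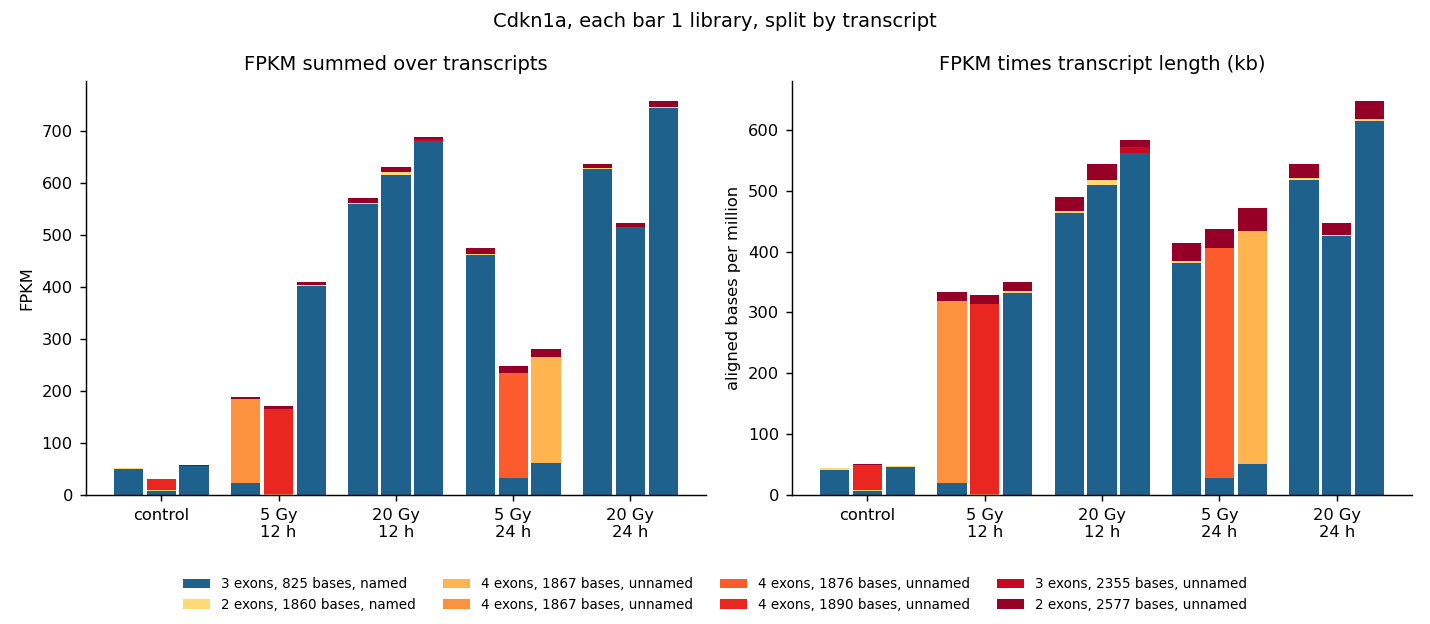
Cdkn1a in each library (bars, stacked by transcript), on the left as FPKM and on the right as FPKM times transcript length in kilobases, which follows the aligned bases. The libraries of 5 Gy at 12 h are 189, 171 and 410 FPKM on the left and 333, 328 and 350 on the right.

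Btg2 (chromosome 13, 50913180 to 50916982, minus strand), a single named transcript of 2 exons, was 13.2, 13.8 and 17.2 FPKM in the control and 15.7, 14.0 and 9.92 at 12 h after 5 Gy, where the groups overlapped. At 12 h after 20 Gy it was 28.7, 29.2 and 22.9 FPKM, above every control library. At 24 h it was 153, 151 and 131 FPKM after 5 Gy and 157, 177 and 196 after 20 Gy. The log2 fold change from control was -0.16 ± 0.16 (SE, adjusted p = 0.526) and 0.83 (adjusted p = 0.00358) at 12 h, and 3.22 (adjusted p = 7.89e-09) and 3.50 (adjusted p = 3.6e-09) at 24 h after 5 Gy and 20 Gy. The last is an 11.3-fold change.

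Zmat3 (chromosome 2, 118715154 to 118746187, minus strand) was 13.2, 13.3 and 12.8 FPKM in the control. It rose to 33.9, 34.2 and 39.5 at 12 h after 5 Gy, 34.6, 33.2 and 36.0 in the 20 Gy 12 h group, and 41.6, 41.8 and 42.4 at 24 h after 5 Gy, while in the 20 Gy 24 h group it was 28.2, 26.1 and 28.1. Every library at 24 h after 20 Gy lay above the control and below every other exposed library. The log2 fold change from control was 1.39 ± 0.069 (SE, adjusted p = 1.76e-07), 1.34 (adjusted p = 1.67e-07), 1.61 (adjusted p = 2.45e-09) and 1.01 (adjusted p = 1.03e-07) in that order. In 14 of the 15 libraries most of it came from an unnamed transcript of 6 exons and 7703 bases, and in control replicate 2 that transcript held 0.160% of the FPKM and one of 7443 bases 67.1%. The named transcript of 1283 bases was at most 4.87 FPKM, and by it alone Zmat3 was not called against control at 12 h, nor at 24 h after 20 Gy.

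Sesn1 and Sesn2, which encode related proteins, went apart. Sesn1 (chromosome 20, 46667121 to 46758305, plus strand) was 69.3, 70.4 and 64.3 FPKM in the control, 84.5, 90.3 and 102 at 12 h after 5 Gy, 67.8, 80.1 and 87.3 in the 20 Gy 12 h group, 55.4, 67.3 and 62.5 at 24 h after 5 Gy, and 33.4, 63.6 and 54.4 in the 20 Gy 24 h group. It was not called against control, with log2 differences of 0.43 (adjusted p = 0.127), 0.19 (adjusted p = 0.533), -0.14 (adjusted p = 0.531) and -0.47 (adjusted p = 0.0419, below the fold limit). The last rests on single libraries, since it was -0.66 without replicate 2 of 20 Gy at 24 h (adjusted p = 0.00691), which would be a call, and -0.21 without replicate 1 (adjusted p = 0.182). The difference of -0.14 changed sign when the values were rescaled to TPM or quantile normalized. Most of it came from an unnamed transcript that starts 69470 bases downstream of the first start, with 54.0 to 63.1 FPKM in the control, 57.3 to 89.4 at 12 h and 26.6 to 51.8 at 24 h. The transcripts from the upstream starts held 6.19 to 11.2 FPKM in the control, 14.4 to 15.8 at 24 h after 5 Gy and 4.81 to 12.96 at 24 h after 20 Gy. Sesn2 (chromosome 5, 150684133 to 150704117, minus strand), a single named transcript, was 22.1, 19.7 and 17.6 FPKM in the control, 38.4, 38.1 and 42.4 at 12 h after 5 Gy, and 44.2, 47.3 and 49.97 in the 20 Gy 12 h group. At 24 h it was 98.7, 104 and 117 FPKM after 5 Gy and 104, 92.1 and 121 after 20 Gy. The log2 fold change of Sesn2 from control was 0.97 ± 0.11 (SE, adjusted p = 7.84e-05) and 1.22 (adjusted p = 1.56e-05) at 12 h, and 2.37 (adjusted p = 4.82e-09) and 2.36 (adjusted p = 4.5e-09) at 24 h.

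**Figure D4:**
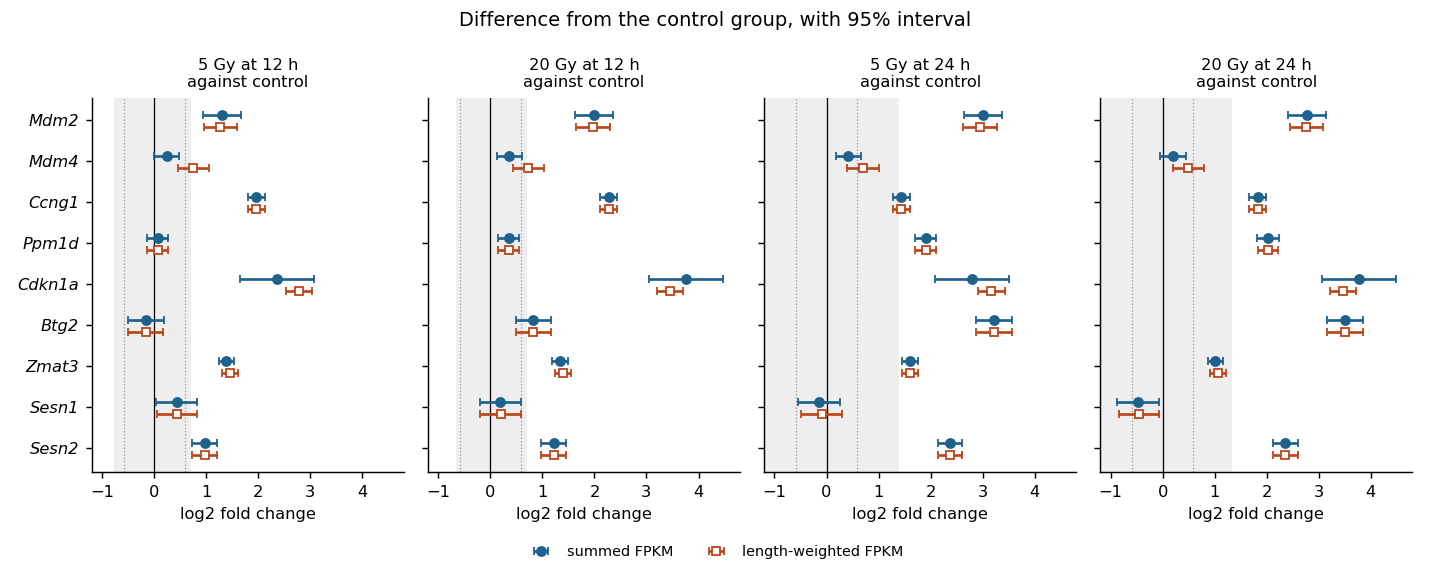
Difference of each gene from the control group in log2(FPKM + 1), with its 95% interval, by summed FPKM (circles) and length-weighted FPKM (squares). The grey band covers the middle 90% of all 17895 genes and the dotted lines mark a 1.5-fold change; Cdkn1a and Mdm4 are the genes in which the measures differ most, and Sesn1 and Mdm4 lie in or near the band in all 4 panels.

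With length-weighted FPKM the genes called higher than control were 6 at 12 h after 5 Gy (5.12% of all genes) and 7 in the 20 Gy 12 h group (5.02%). At 24 h they were 8 after 5 Gy (20.3%) and 7 after 20 Gy (16.9%). The gene added in 3 of the comparisons was Mdm4.

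Between 12 h and 24 h, Mdm2, Ppm1d, Btg2 and Sesn2 rose after both doses. After 5 Gy these 4 of the 9 genes were called higher, beside 17.1% of all genes, and 0 were called lower, beside 19.3%. After 20 Gy the same 4 were called higher, beside 14.1% of all genes, and Sesn1 was called lower, beside 22.1%. The log2 rise after 5 Gy and 20 Gy was 3.38 and 2.67 for Btg2, 1.84 and 1.67 for Ppm1d, 1.71 and 0.78 for Mdm2 and 1.40 and 1.14 for Sesn2, with adjusted p between 6.81e-09 and 0.0017. Of these, that of Mdm2 was lost with the named transcripts alone, which gave 0.40 after 5 Gy (adjusted p = 0.0705) and -0.31 after 20 Gy (adjusted p = 0.15). Every 24 h library of Ccng1 lay below every 12 h library of the same dose, with log2 differences of -0.53 (adjusted p = 8.57e-05) and -0.45 (adjusted p = 0.000318), which are less than the 1.5-fold limit. Sesn1 differed by -0.57 after 5 Gy (adjusted p = 0.0185, below the fold limit) and by -0.67 after 20 Gy (adjusted p = 0.0081). The second is -0.40 without replicate 1 of 20 Gy at 24 h, in which Sesn1 was 33.4 FPKM, and then is below the fold limit. Its call was also lost under quantile normalization (-0.56), with only the groups compared (adjusted p = 0.0556) and with named transcripts alone (-0.43). The difference after 5 Gy would be a call without replicate 1 at 12 h (-0.63), without replicate 2 at 24 h (-0.64) and with the highest transcript (-0.75). Cdkn1a was not called between the times, with 0.43 after 5 Gy (adjusted p = 0.287) and 0.01 after 20 Gy (adjusted p = 0.985), and with length-weighted FPKM the first was 0.39 (adjusted p = 0.0122, below the fold limit). Without replicate 3 of 5 Gy at 12 h the first was 0.83 (adjusted p = 0.0282), which would be a call, and over all libraries left out in turn it ran from 0.15 to 0.83.

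The 24 h libraries also differed in genes outside the p53 pathway. The 9 heat shock genes of the list summed to 323 to 418 FPKM in the control and at 12 h, to 2259 to 3038 at 24 h after 5 Gy and to 7940 to 9629 at 24 h after 20 Gy. Hspa1b, the inducible HSP70 chaperone, was 9.15 to 14.8 FPKM in the first 9 libraries, 1044 to 1607 at 24 h after 5 Gy and 4553 to 5612 after 20 Gy. The 8 immediate early genes summed to 204 to 220 FPKM in the control, 32.9 to 129 at 12 h and 858 to 1753 at 24 h. Nr4a1, Junb and Fos, all immediate early transcription factors, were lower than control at 12 h and higher at 24 h, at 36.3, 64.2 and 10.2 FPKM in the control, 4.34, 19.9 and 1.65 at 12 h after 5 Gy, and 735, 376 and 176 in the 20 Gy 24 h group. Egr1 and Egr2, of the same list, were lower than control at both times. Of the 8 genes of the integrated stress response, 6 and 5 were called higher at 24 h after 5 Gy and 20 Gy, beside 20.5% and 17% of all genes. Of those 8, Ppp1r15a had log2 changes of 0.71 and 1.38. Atf4 and Ddit4 were not called there, with -0.48 and -0.53 for Atf4 and 0.18 and -0.20 for Ddit4. Of the 6 fibroblast markers, Col1a1, Col1a2, Col3a1, Dcn and Lum lay below the control in every 24 h library, while Pdgfra was 51.7 to 52.6 FPKM in the control, 56.1 to 66.8 at 24 h after 5 Gy and 43.8 to 56.1 after 20 Gy. The 5 pericyte markers summed to 54.2 to 62.0 FPKM in the control and 15.6 to 26.5 at 24 h, nearly all from Pdgfrb and Cspg4, with Kcnj8 and Abcc9 listed at 0 in every library. By their sums, the heat shock, immediate early and integrated stress response lists stood above control at 24 h, as did Btg2, Ppm1d, Mdm2 and Sesn2. The sums of the fibroblast and pericyte markers stood below it. The part of these lists in the changes of Btg2, Ppm1d, Mdm2 and Sesn2 was not tested.

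**Figure D5:**
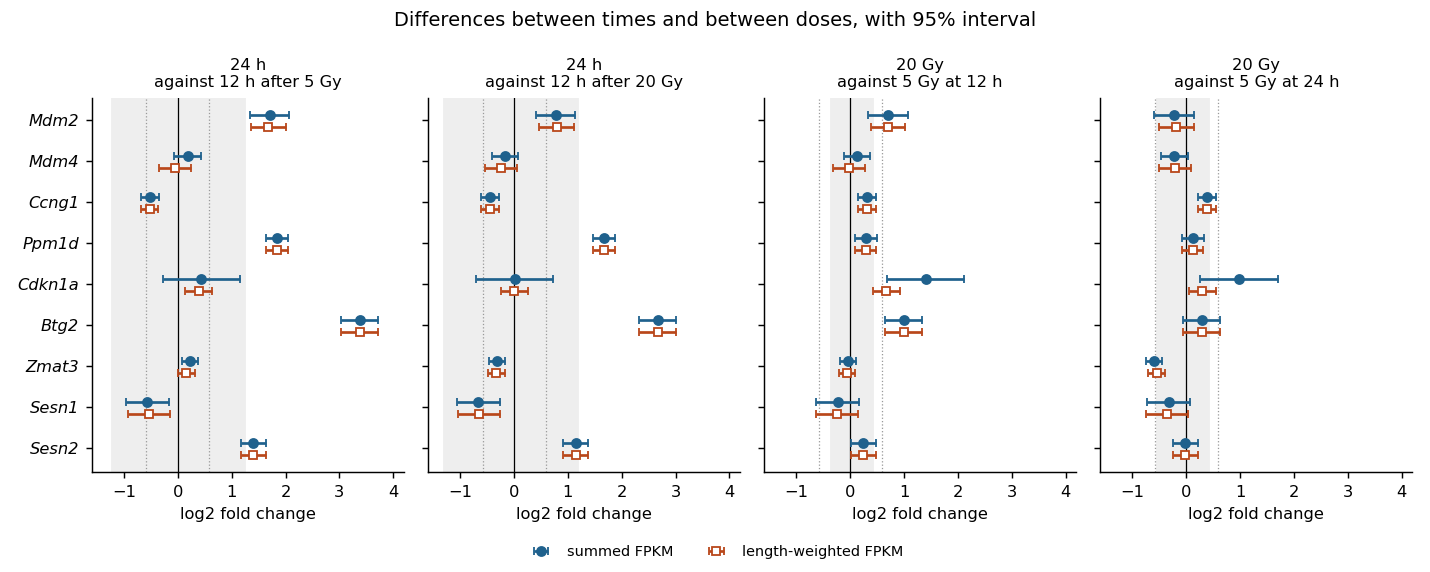
Difference in log2(FPKM + 1) between 24 h and 12 h at each dose and between 20 Gy and 5 Gy at each time, with 95% intervals, by summed FPKM (circles) and length-weighted FPKM (squares); the grey band covers the middle 90% of all 17895 genes and the dotted lines mark a 1.5-fold change. Btg2, Ppm1d, Mdm2 and Sesn2 lie to the right of the dotted lines in both time panels, but Mdm2 and Sesn2 lie inside the band after 20 Gy. By summed FPKM, Cdkn1a, Btg2 and Mdm2 lie to the right of the band in the dose panel of 12 h. In that of 24 h, also by summed FPKM, Cdkn1a lies to the right of the band and Zmat3 to the left. By length-weighted FPKM Cdkn1a lies inside the band at 24 h.

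Few of the genes were called between the doses. At 12 h, 1 of the 9 genes, Btg2, was called higher after 20 Gy than after 5 Gy, beside 0.117% of all genes (log2 0.99 ± 0.16, SE, adjusted p = 0.033). This call rests on the exact settings, since leaving out any 1 of the 3 libraries after 5 Gy or of replicates 1 and 2 after 20 Gy gave an adjusted p between 0.0567 and 0.183, with log2 differences of 0.81 to 1.12. With length-weighted FPKM, 2 genes were called higher, beside 0.179% of all genes, Btg2 and Cdkn1a (log2 0.67 ± 0.12, SE, adjusted p = 0.0451). Mdm2 did not overlap between the doses at 12 h and was not called (log2 0.70, 95% interval 0.34 to 1.06, adjusted p = 0.169). By summed FPKM Cdkn1a was not called, at 1.40 (0.69 to 2.12, adjusted p = 0.155) at 12 h and 0.98 (0.26 to 1.69, adjusted p = 0.117) at 24 h. With length-weighted FPKM its 24 h difference was only 0.29 (0.04 to 0.54, adjusted p = 0.163). By FPKM times length, its libraries of both doses overlapped at 24 h (two-sided exact permutation p = 0.2). The other 12 h differences were 0.31 for Ccng1 (0.14 to 0.48), 0.29 for Ppm1d (0.08 to 0.49) and 0.25 for Sesn2 (0.007 to 0.48). They were 0.13 for Mdm4 (-0.12 to 0.37), -0.05 for Zmat3 (-0.20 to 0.10) and -0.24 for Sesn1 (-0.63 to 0.16). At 24 h, Zmat3 was called lower after 20 Gy than after 5 Gy, 1 of the 9 genes, beside 1.46% of all genes (log2 -0.59 ± 0.069, SE, adjusted p = 0.000473). The size is close to the 1.5-fold limit, and with length-weighted FPKM (log2 -0.55, adjusted p = 0.00104) 0 of the 9 genes were called, beside 2.69% of all genes. Without replicate 2 of 20 Gy at 24 h it was -0.56, which is also below the limit. The differences at 24 h were -0.02 for Sesn2 (95% interval -0.25 to 0.22), 0.12 for Ppm1d (-0.09 to 0.32), 0.28 for Btg2 (-0.06 to 0.63) and -0.23 for Mdm2 (-0.59 to 0.13), and these intervals do not show that the doses act alike. Whether the change from 12 h to 24 h differed between the doses was tested as an interaction, and 0 of the 9 genes were called, beside 0.52% of all genes. Zmat3 had an interaction of -0.54 (adjusted p = 0.0283) and Mdm2 of -0.93 (adjusted p = 0.112). Of the 17895 genes, 93 were called by this interaction and 2305 had an unadjusted p below 0.05.

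Other genes of the pathway were described by list. Those named had the highest mean FPKM of their list, apart from genes in counts of 5 or fewer. Of 25 other p53 targets tested, 11 rose and 1 fell at 12 h after 5 Gy, 12 rose and 1 fell in the 20 Gy 12 h group, 15 rose and 2 fell at 24 h after 5 Gy, and 12 rose and 2 fell in the 20 Gy 24 h group. Their median log2 changes were 0.68, 0.50, 0.78 and 0.74, beside 0.03, 0.01, -0.05 and -0.14 for all genes. In the same order, 4.98%, 4.9%, 20.5% and 17% of all genes were called higher, and 4.96%, 3.64%, 20.8% and 23.3% lower. Phlda3, an inhibitor of Akt signalling, and Bax, the mitochondrial death effector, rose in all 4 comparisons, with log2 changes of 1.33, 1.75, 1.38 and 1.29 for Phlda3 and 0.84, 0.85, 1.02 and 0.99 for Bax. Tp53inp1 rose to 1.60 and 1.83 at 12 h and 2.87 and 3.16 at 24 h. Plk2, a kinase, rose from 4.404 FPKM in the control to 83.2 and 109 at 24 h after 5 Gy and 20 Gy. Ei24 rose in all 4 comparisons and was 31.0 FPKM in the control and 79.9 at 24 h after 20 Gy, Rps27l was called in all but that of 24 h after 5 Gy, and Gadd45a only in those of 24 h (log2 1.76 and 1.11). Cd82 fell at 24 h, by 0.86 and 0.84 on the log2 scale. The genes counted as falling at 12 h and 24 h were Plk3 at 12 h and Tigar and Cd82 at 24 h.

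Atm, the kinase that responds to DNA breaks, stayed between 4.68 and 5.36 FPKM in all group means. Of 14 genes of the p53 family and its regulators tested, 0 rose and 1 fell at 12 h after 5 Gy (Chek2, by 0.59 on the log2 scale), and 0 were called in the 20 Gy 12 h group. At 12 h, 4.98% and 4.9% of all genes were called higher after 5 Gy and 20 Gy, and 4.96% and 3.64% lower. In the 24 h groups, 5 rose and 1 fell after 5 Gy, and 4 rose and 1 fell after 20 Gy, beside the 20.5% and 17% of all genes called higher and the 20.8% and 23.3% called lower. Rchy1, another ubiquitin ligase of p53, was among those that rose (log2 0.92 and 0.87), with Usp7, Daxx and Tp53bp1 after both doses and Cop1 after 5 Gy. The gene that fell was Cdkn2a (log2 -1.22 and -1.36), and the ribosomal proteins Rpl5 and Rpl11, which bind Mdm2, were not called.

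The cell cycle genes went the other way. Of 25 tested, 20 fell at 12 h after 5 Gy, 15 in the 20 Gy 12 h group, 21 at 24 h after 5 Gy and 21 in the 20 Gy 24 h group, and 0, 0, 1 and 1 rose. Of all genes, 4.96%, 3.64%, 20.8% and 23.3% were called lower in these comparisons, and 4.98%, 4.9%, 20.5% and 17% higher. The median log2 changes of the cell cycle genes were -1.19, -0.90, -1.79 and -1.56, beside 0.03, 0.01, -0.05 and -0.14 for all genes. Pcna and Mcm2, of DNA replication, were 113 and 51.8 FPKM in the control, 41.6 and 15.4 at 12 h after 5 Gy and 40.1 and 15.99 at 24 h after 5 Gy. Cdk1, the mitotic kinase, was 47.0 FPKM in the control, 19.8 and 4.55 at 12 h and 24 h after 5 Gy, and 27.2 and 8.08 after 20 Gy. Cdk4 fell at 24 h (log2 -0.62 after both doses), Ccnd1 was not called against control, and the gene that rose was Tyms (log2 0.65 and 0.72). Bbc3, Tnfrsf10b, Chek1, Ccnb2 and E2f1 were not analysed here.

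For each gene the profile most like its own was sought by Pearson correlation of log2(FPKM + 1) over the 15 libraries, among 8898 named genes with a mean of at least 5 FPKM. These values describe profiles over 5 groups, which the points share. Ppm1d was most like Ets2 (r = 0.993), a transcription factor, and Dusp1 (r = 0.992), the MAP kinase phosphatase, whose mean went from 89.8 FPKM in the control and 92.3 at 12 h after 5 Gy to 1796 in the 5 Gy 24 h group. Btg2 was most like Kctd1 (r = 0.988), and Ppm1d came next (r = 0.987). Sesn2 was most like Znfx1 (r = 0.991), Enc1 (r = 0.990) and Rbm38 (r = 0.988), the last an RNA-binding protein and known p53 target. The other leading genes were Kin for Mdm2 (r = 0.974), Mmp2 for Ccng1 (r = 0.972), Svop for Cdkn1a (r = 0.964), Recql5 for Zmat3 (r = 0.962), Slc3a1 for Sesn1 (r = 0.934) and Dr1 for Mdm4 (r = 0.894). Svop was 0.0605 FPKM in the control and 4.91 and 8.91 at 12 h after 5 Gy and 20 Gy.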

How the data were processed

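A total of 15 libraries of poly-A selected RNA, 3 in each of 5 groups, were used, grouped by the labels. The authors trimmed reads with Trimmomatic, mapped them to Rnor_6.0 with HISAT2, assembled and merged transcripts with StringTie and deposited FPKM per transcript and library. FPKM are not counts, so no count model was used. FPKM were summed per gene, and log2(FPKM + 1) was tested in limma 3.58.1 (R 4.3.3) with a mean for each group (10 residual degrees of freedom), a trended variance prior and adjustment by Benjamini and Hochberg, after a filter at a mean of 0.5 FPKM. The pipeline was tested on simulated data. Single values were compared by two-sided exact permutation tests in SciPy 1.17.1.

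Depth was recovered from steps of FPKM times length on single-exon transcripts of up to 400 bases, of which 78.9% to 83.2% were whole multiples of the step within 0.1 step, compared with at most 18.9% (median) for other steps. A gene sum depends on which transcript the reads were given to. Length-weighted FPKM (FPKM times length, summed and divided by the FPKM-weighted mean transcript length of the gene over all libraries) was therefore added after seeing the data.

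The genes and lists were chosen with earlier results of these data known. All 9 genes are named. Of each other list the genes with the highest mean FPKM are named (8 of the p53 targets, 6 of the cell cycle, the first of the p53 regulators plus Atm and Chek2, 3 of the others; a gene that this rule names is not reported here), and of the similar profiles the first 3 at most. Genes in counts of 5 or fewer were named after their values were seen. Alternative settings were another pseudocount (0.1), no filter or one at 1 FPKM, quantile normalization, TPM, only the groups compared, no variance trend, the replicate number as a block, the transcript with the highest mean, named transcripts only, other call limits and leaving out each library. Promoters are RefSeq sequences of GRCr8, matched by symbol, and their coordinates are not comparable with those of the files. Pecam1 was not analysed here.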

Additional observations from a re-analysis of the deposited data

Results flagged for a closer look

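The change of Zmat3 from 12 h to 24 h differed between the doses, by -0.54 on the log2 scale (20 Gy minus 5 Gy, adjusted p = 0.0283 for the interaction in limma). Its means went from 35.9 to 41.9 FPKM after 5 Gy and from 34.6 to 27.5 after 20 Gy, with no overlap between the times at either dose. By FPKM times length, the libraries at 12 h and 24 h after 5 Gy did overlap (two-sided exact permutation p = 0.3). The size is below the 1.5-fold limit of a call. With length-weighted FPKM it was -0.49 (adjusted p = 0.0497), and rescaled to TPM it was -0.61 (adjusted p = 0.0395). Fitted with only the groups compared the adjusted p was 0.0733, and with 1 library left out it was between 0.0159 and 0.0903, the size staying between -0.61 and -0.51. No group of 4 or more libraries existed, so no library was tested as an outlier.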

How the results depend on the processing

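Of the 36 calls made on the 9 genes, 33 kept their call when each library of the comparison was left out in turn. The others were Btg2 (20 Gy against 5 Gy at 12 h), Zmat3 (20 Gy against 5 Gy at 24 h) and Sesn1 (24 h against 12 h after 20 Gy). Leaving out libraries gave 0 to 1 calls for each comparison between doses and for the interaction. It gave 7 to 8 calls for 20 Gy at 24 h against control and 4 to 5 for 24 h against 12 h at each dose. The interaction had 1 call under TPM, and 1 by adjusted p alone. For 20 Gy against 5 Gy at 12 h, 0 genes were called with no filter, with only the groups compared, with the highest transcript, with named transcripts only and at a fold change of 2, and 2 with length-weighted FPKM. For 24 h the count was 0 with the highest transcript, named transcripts only, a fold change of 2 and length-weighted FPKM, and 2 by adjusted p alone. For 24 h against 12 h, adjusted p alone gave 7 calls after 5 Gy, and a fold change of 2 gave 3 after 20 Gy.

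No sign was seen that the replicate numbers pair the libraries. Deviations of libraries with the same number correlated at -0.177 to 0.232 and those with other numbers at -0.209 to 0.203. Of the 15 libraries, 4 were closest to their own number. This cannot show that libraries with the same number came from separate animals or cultures. The replicate block left 0 calls for 20 Gy against 5 Gy at 12 h (Btg2, adjusted p = 0.082) and changed no other count of calls.

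Other scalings moved the median of all genes by at most 0.117 (TPM, 5 Gy at 24 h) and 0.106 (quantile, 24 h against 12 h after 20 Gy) in log2. Of 1431 values of the 9 genes recomputed, 29 changed sign, 26 of them values that were not called. Quantile normalization gave 0.066 for Sesn1 (5 Gy at 24 h), -0.016 for Cdkn1a (24 h against 12 h after 20 Gy) and -0.12 for Ccng1 (interaction), and TPM gave 0.0062 for Sesn1 (5 Gy at 24 h). The highest transcript gave -0.50 for Cdkn1a (5 Gy at 12 h), -0.15, 0.24, -1.06 and 0.39 for Mdm4 (24 h against 12 h after 5 Gy and after 20 Gy, 20 Gy against 5 Gy at 12 h, interaction) and 0.035 for Sesn1 (interaction). Named transcripts only gave -0.46 for Cdkn1a (5 Gy at 12 h), 0.70 and 0.19 for Sesn1 (5 Gy at 24 h, and 24 h against 12 h after 5 Gy), -0.31 and 0.034 for Mdm2 (24 h against 12 h after 20 Gy, and 20 Gy against 5 Gy at 24 h), 0.94, -0.64 and 0.020 for Mdm4 (24 h against 12 h after 20 Gy, 20 Gy against 5 Gy at 12 h, interaction) and 0.21 for Zmat3 (20 Gy against 5 Gy at 12 h). With the highest transcript Cdkn1a also lost its call in the other 3 comparisons with control (adjusted p = 0.139, 0.443 and 0.0537) and Mdm4 was called in all 4 (2.30 to 3.35). With named transcripts Cdkn1a lost these calls at 20 Gy 12 h and 5 Gy 24 h (adjusted p = 0.128 and 0.443) and Zmat3 lost 3 of 4, and Mdm4 was called in 3. Both settings drop the transcripts that hold most reads in some libraries. Length-weighted FPKM gave -0.051 and -0.022 for Mdm4 (24 h against 12 h after 5 Gy, 20 Gy against 5 Gy at 12 h). Leaving out libraries gave -0.29 to 0.014 for Btg2 (5 Gy at 12 h against control), -0.087 to 0.020 for Zmat3 (20 Gy against 5 Gy at 12 h), -0.011 to 0.14 for Ccng1 (interaction), -0.28 to 0.17 for Sesn1 (interaction), -0.12 to 0.14 for Cdkn1a (24 h against 12 h after 20 Gy) and -0.12 to 0.079 for Sesn2 (20 Gy against 5 Gy at 24 h). The depth of 5.44 to 7.49 gigabases per library and the 3 libraries per group limit what could be detected.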
